A study of Mus musculus with 12 samples.

Results

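Skeletal muscle fibres carry a set of genes for releasing, storing and retrieving calcium and for buffering energy and oxygen, and 10 of them were examined in the cerebellum of mice with and without Eed. They are Ryr1, Trdn, Jsrp1, Casq1, Casq2, Atp2a1, Sln, Ckm, Mb and Car3, taken by symbol from the 55385 genes listed. They were picked because earlier results of the same comparison had shown them, so their own difference between genotypes is described here and not tested. RNA was taken from whole cerebellum at postnatal day 14 on the C57BL/6 strain, with 3 wild-type (WT) libraries and 3 libraries of Eed conditional knockouts (EED-/-). The protein made from Eed belongs to the core of Polycomb repressive complex 2, the enzyme that puts the repressive mark H3K27me3 on histones. No Cre driver and no deleted exon is named in the labels, so the cells that lost Eed are not known from them. A further 6 ChIP-seq samples of the series were not analysed here.

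In a muscle fibre the membrane dips inward to meet the sarcoplasmic reticulum, the internal calcium store, at a junction called the triad. Depolarisation opens the release channel Ryr1 there, calsequestrins hold calcium inside the store, and the SERCA pumps return calcium to it after contraction. Creatine kinase rebuilds ATP beside the filaments, and myoglobin stores oxygen. Neurons of the cerebellum run a related system with other members of the same families: Purkinje cells use the IP3 receptor Itpr1, the pumps Atp2a2 and Atp2a3, and Ryr1 itself.

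The libraries held 19621814 to 20366173 estimated counts. Mitochondrial transcripts took 3.21% to 6.37% of counts in WT and 6.45% to 8.04% in EED-/- libraries. Eed was read at 20.1, 26.6 and 23.5 CPM (counts scaled to library size, with TMM factors) in WT replicates 1, 2 and 3 and at 11.6, 9.31 and 11.3 CPM in the EED-/- replicates. All EED-/- libraries lay below all WT libraries, which checks the labels (log2 fold change -1.12, SE 0.154, edgeR adjusted p = 0.0015). Whether each library is a different animal is not labelled, and the p-values therefore reflect library-to-library spread, which may be technical. Of 18091 genes with enough counts to test, 2125 (11.7%) were called higher and 2544 (14.1%) lower in EED-/- at an adjusted p under 0.05. These counts were 1205 and 1335 without EED-/- replicate 1, 1324 and 1640 without WT replicate 3, 1337 and 1731 without EED-/- replicate 2, and 1932 and 1677 without EED-/- replicate 3. Upper-quartile scaling gave 2828 higher and 1786 lower, and library size alone 2641 and 1865.

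The sequences just before the annotated starts were read for short motifs, and no searched motif was shared by all of them. RefSeq (GRCm38.p6) gave a start for 6 of the 10: Ckm, Mb, Atp2a1, Casq1, Casq2 and Ryr1. The 250 bases before each start were searched on both strands for CANNTG, the E-box bound by the myogenic factors MyoD and myogenin, and for its form CAGCTG, which is counted under both. The MEF2 and CArG boxes and TATAAA were searched as well. The 5 stretches with a match are printed 5′ to 3′ on the gene's own strand, with matches in capitals; bases lying in the gene's own exons are left out. Ckm is chr7:19410844-19411024 on the plus strand and Mb is chr15:77022788-77023037 on the minus strand. Atp2a1 is chr7:126463109-126463323 and Casq1 is chr1:172219896-172220145, both on the minus strand, and Casq2 is chr3:102086165-102086414 on the plus strand.
Ckm: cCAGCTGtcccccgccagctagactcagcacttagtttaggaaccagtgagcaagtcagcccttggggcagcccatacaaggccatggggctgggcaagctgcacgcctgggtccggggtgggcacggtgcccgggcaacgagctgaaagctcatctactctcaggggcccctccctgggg
Mb: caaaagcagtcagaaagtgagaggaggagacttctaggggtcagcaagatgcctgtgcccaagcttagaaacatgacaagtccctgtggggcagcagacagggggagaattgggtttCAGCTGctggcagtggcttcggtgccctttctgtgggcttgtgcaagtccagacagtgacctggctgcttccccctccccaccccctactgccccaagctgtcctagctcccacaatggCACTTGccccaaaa
Atp2a1: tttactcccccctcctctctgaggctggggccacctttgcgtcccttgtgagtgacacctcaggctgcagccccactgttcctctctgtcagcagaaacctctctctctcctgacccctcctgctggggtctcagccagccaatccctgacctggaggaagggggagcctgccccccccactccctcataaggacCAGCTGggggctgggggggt
Casq1: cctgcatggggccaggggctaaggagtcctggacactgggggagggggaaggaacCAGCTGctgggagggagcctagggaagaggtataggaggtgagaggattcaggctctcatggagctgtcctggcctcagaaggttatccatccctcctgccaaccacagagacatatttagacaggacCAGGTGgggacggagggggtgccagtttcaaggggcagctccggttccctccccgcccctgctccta
Casq2: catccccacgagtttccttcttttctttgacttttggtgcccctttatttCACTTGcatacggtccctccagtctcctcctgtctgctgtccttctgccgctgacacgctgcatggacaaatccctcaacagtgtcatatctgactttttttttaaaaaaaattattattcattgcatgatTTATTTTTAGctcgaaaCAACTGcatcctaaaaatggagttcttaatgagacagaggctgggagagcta

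The form CAGCTG was present in 4 of these 6 genes, and 13.0% of all 32851 windows of the same length held it. Counting back from the base before the start as -1, it lay at -249 to -244 in Ckm, -133 to -128 in Mb, -55 to -50 in Atp2a1 and -195 to -190 in Casq1. Mb has 3 annotated starts; the window shown overlaps a second one with the same CAGCTG, and the third window held 2 other E-boxes and no CAGCTG. Casq2 carried 2 other E-boxes and the only MEF2 match, at -69 to -60, and Ryr1 carried no match. Any E-box was common, in 66.2% of all windows, and a MEF2 match was found in 2.92%. The CArG box (1.47% of all windows) and TATAAA (12.4%) matched in none of the 6. A match of letters is a description and does not show that a factor binds there.

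**Figure D1:**
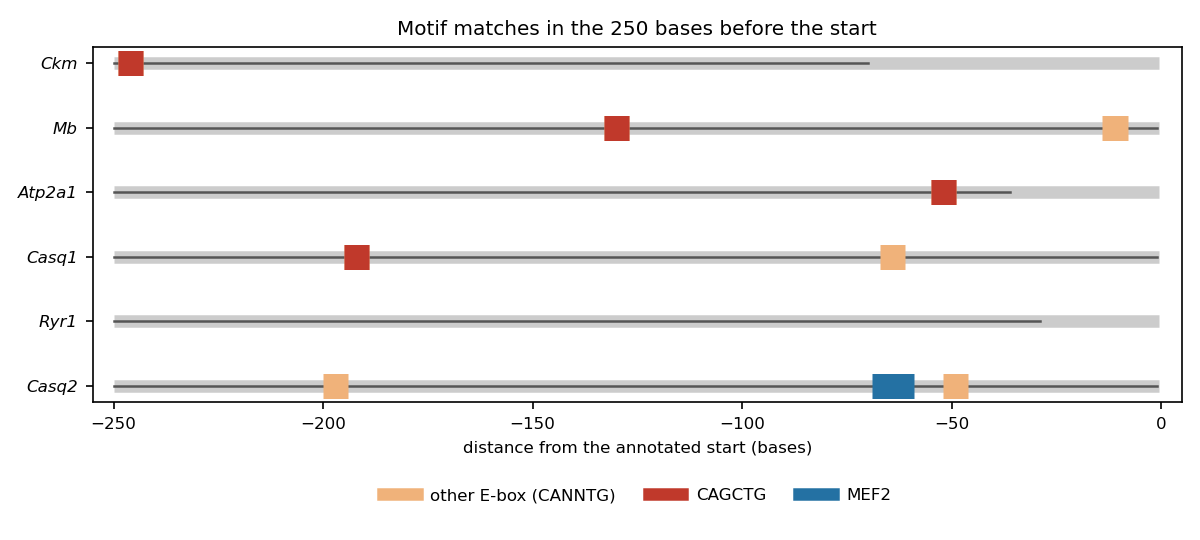
Motif matches before the annotated start of the 6 genes with a RefSeq start; the x axis is the distance from the start in bases. Grey bars are the 250 bases searched, thin dark lines the part outside the gene's own exons, red blocks CAGCTG, orange blocks other E-boxes and the blue block MEF2. Red blocks stand in Ckm, Mb, Atp2a1 and Casq1.

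All 10 genes passed the filter on low counts, and in each of them every EED-/- library lay above every WT library. Over all tested genes 20.1% did so. At the threshold used for all genes 8 of the 10 were called higher, against 11.7% of all genes, and Jsrp1 and Casq2 were not called. Since this comparison chose the genes, nothing is read from these counts. The fitted log2 fold changes ran from 0.43 (Casq2) to 6.33 (Ckm). In whole tissue, more cells of a type and more RNA per cell cannot be told apart.

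The release channel and its partners differed from one another in where they started. Ryr1 (ENSMUSG00000030592.18; GRCm38 chromosome 7, 29003344 to 29125179, minus strand) was already well expressed in WT, at 37.96, 32.51 and 35.09 CPM, and reached 56.62, 57.52 and 50.07 CPM in EED-/-. The WT libraries were close together and the EED-/- libraries stood 1.32-fold or more above the highest of them. The means were 35.2 ± 2.73 and 54.7 ± 4.07 CPM (SD, n = 3), a log2 fold change of 0.64 (SE 0.114). Trdn (chromosome 10, 33080554 to 33476709, plus strand) encodes triadin, which anchors calsequestrin to the channel. It had 1 count in all WT libraries together, in replicate 3, and 64 counts in EED-/-, at 0.8995, 0.8466 and 1.321 CPM. Its ratio of 58.6 has a 95% interval from counting error of 10.1 to 2349, so the size is poorly fixed. Jsrp1 (chromosome 10, 80808496 to 80813498, minus strand) encodes a small junctional protein, JP-45, that links the voltage sensor to calsequestrin. It was read at 0.359, 0.107 and 0.517 CPM in WT and at 1.04, 1.13 and 0.538 CPM in EED-/-. EED-/- replicate 3 was only 1.04-fold above WT replicate 3, and the means were 0.328 ± 0.207 and 0.903 ± 0.319 CPM.

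The calsequestrins, which bind calcium inside the store, split in the same way. Casq1, the fast-muscle form (chromosome 1, 172209894 to 172219868, minus strand), was at 0.7695, 1.448 and 0.982 CPM in WT and at 3.172, 2.587 and 3.622 CPM in EED-/-. The groups were well apart, with means of 1.07 ± 0.347 and 3.13 ± 0.519 CPM and a log2 fold change of 1.55 (SE 0.289). Casq2, the cardiac and slow-muscle form (chromosome 3, 102086415 to 102146514, plus strand), was at 25.8, 21.41 and 19.79 CPM in WT and at 28.88, 26.01 and 35.34 CPM in EED-/-. Its lowest EED-/- library was 1.008 times its highest WT library, so the groups nearly touched. Its means were 22.3 ± 3.11 and 30.1 ± 4.78 CPM, and its log2 fold change of 0.43 (SE 0.156) was the smallest of the 10.

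Of the uptake genes, Atp2a1 encodes SERCA1, the calcium pump of fast muscle (chromosome 7, 126445858 to 126463108, minus strand). It was at 1.026, 0.966 and 1.137 CPM in WT and at 6.58, 7.149 and 4.503 CPM in EED-/-. The WT values were nearly equal, and the lowest EED-/- library was 3.96-fold above the highest of them. The means were 1.04 ± 0.0869 and 6.08 ± 1.39 CPM, a log2 fold change of 2.54 (SE 0.247). Sln (chromosome 9, 53850164 to 53854560, plus strand) encodes sarcolipin, a small membrane peptide that holds SERCA pumps back. It was at 0.718, 0.376 and 0.362 CPM in WT and at 1.61, 1.552 and 1.028 CPM in EED-/-. The means were 0.485 ± 0.202 and 1.40 ± 0.321 CPM (log2 fold change 1.51, SE 0.372).

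The 3 genes of energy, oxygen and acid-base handling had WT means at or below 1.17 CPM, as had Trdn, Jsrp1, Casq1, Atp2a1 and Sln. Mb encodes myoglobin (chromosome 15, 77015487 to 77050670, minus strand) and was at 0.205, 0.215 and 0.517 CPM in WT and at 13.21, 15.05 and 11.16 CPM in EED-/-. The lowest EED-/- library was 21.6-fold above the highest WT library. The means were 0.312 ± 0.177 and 13.1 ± 1.95 CPM, a log2 fold change of 5.36 (SE 0.314). Car3, a cytosolic carbonic anhydrase abundant in slow muscle (chromosome 3, 14863512 to 14872523, plus strand), was at 0.7695, 1.502 and 1.24 CPM in WT and at 23.2, 20.55 and 26.09 CPM in EED-/-. Its means were 1.17 ± 0.371 and 23.3 ± 2.77 CPM (log2 fold change 4.31, SE 0.235), and only Ryr1 had a smaller CV over the EED-/- libraries. Ckm encodes the muscle creatine kinase (chromosome 7, 19404776 to 19422841, plus strand). It had 2 counts over the WT libraries, both in replicate 3, and 4.497, 3.433 and 1.909 CPM, or 207 counts, in EED-/-. The ratio was 94.7 (95% counting interval 25.9 to 787), and the EED-/- values spread over a CV of 39.7%.

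**Figure D2:**
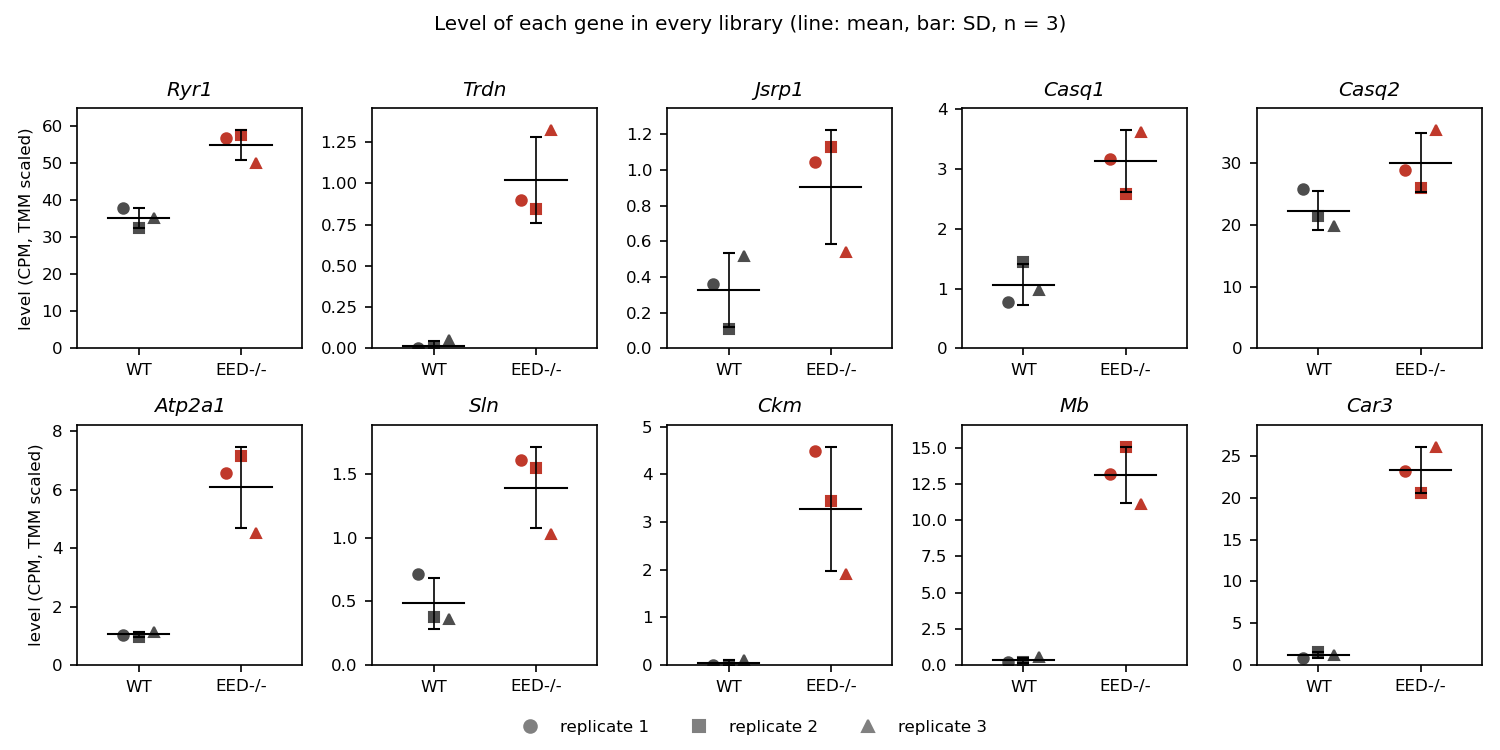
Level of each of the 10 genes in every library, in TMM-scaled CPM on a linear axis from 0; symbols are replicates, lines are means and bars SDs (n = 3). Ryr1 and Casq2 begin from 35.2 and 22.3 CPM in WT, while the WT means of the other 8 are at or below 1.17 CPM.

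The summed level of the 10 genes was 58.5 to 67.6 CPM in WT and 135.6 to 139.7 CPM in EED-/- libraries. Without Ryr1 and Casq2 it was 3.85 to 4.91 CPM and 50.2 to 54.2 CPM. Most of the WT sum therefore came from these 2 genes. The authors' deposited table gave log2 fold changes between 0.45 (Casq2) and 6.58 (Ckm), with Trdn at 5.79, Mb at 5.42 and Car3 at 4.34.

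Per kilobase of exon, which lets genes be compared, the order changed between genotypes. In WT, Casq2 came first at 8.16 ± 1.14 CPM per kb and Ryr1 second at 1.61 ± 0.12. Casq1, Car3, Sln, Atp2a1, Jsrp1 and Mb followed between 0.547 and 0.209 CPM per kb, with the SD intervals of neighbours overlapping. Ckm and Trdn came last, at 0.0118 and 0.00184 CPM per kb. In EED-/- Casq2 (10.99 ± 1.75), Mb (8.81 ± 1.30) and Car3 (8.13 ± 0.966 CPM per kb) led, and neighbours among them did not differ beyond their SDs. Ryr1 came next at 2.51 ± 0.186, then Atp2a1, Casq1, Ckm, Sln and Jsrp1 from 1.75 down to 0.677 CPM per kb with neighbours again within their SDs. Trdn was last at 0.109 ± 0.0278 CPM per kb. Among all tested genes Mb stood at percentile 5.57 per kb in WT and 70.8 in EED-/-, Car3 at 12.3 and 68.7, and Ckm at 0.149 and 25.2. Trdn was near the bottom in both, at percentile 1.04 in EED-/-.

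Most of these genes have relatives or counterparts that the cerebellum uses. No counterpart of Trdn, Jsrp1 or Sln was listed. The 18 neural counterparts that were listed were all tested. Of them 2 rose (11.7% of all genes did) and 4 fell (14.1%), with a median log2 fold change of -0.01 against -0.03 over all genes. Among the ryanodine receptors, Ryr3 rose from 21.5 ± 5.52 to 39.6 ± 1.46 CPM (edgeR adjusted p = 0.0097), and Ryr2, the cardiac and main brain form, fell from 215 ± 15.7 to 133 ± 16.6 CPM (adjusted p = 0.00508). Per kb, Ryr1 was 15.9 ± 2.09% of the 3 receptors in WT and 27.3 ± 2.98% in EED-/-, and Ryr2 was 73.1 ± 1.79% and 50.0 ± 4.36%. The store's other exit, Itpr1, was at 1777 ± 324 and 1837 ± 340 CPM and was not called (adjusted p = 0.872). The calcium-binding reticulum protein Calr was also not called, at 463 ± 86.1 and 507 ± 23.0 CPM.

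The pumps of neurons far outweighed the muscle pump in both genotypes. Atp2a2 was at 1331 ± 111 and 1429 ± 149 CPM (adjusted p = 0.592) and Atp2a3 at 216 ± 65.4 and 211 ± 26.6 CPM (adjusted p = 0.922). Atp2a1 was 0.117 ± 0.0175% of the 3 pumps per kb in WT and 0.645 ± 0.198% in EED-/-. Among creatine kinases the same held: the brain form Ckb was at 1243 ± 214 and 1032 ± 147 CPM and the mitochondrial Ckmt1 at 225 ± 17.7 and 235 ± 4.76 CPM, neither called. Ckm made up 0.249 ± 0.103% of the creatine kinases per kb in EED-/-. Casq1 was 6.40 ± 2.33% of the calsequestrins in WT and 12.7 ± 0.569% in EED-/-.

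Myoglobin was set beside neuroglobin and cytoglobin, which are also globins found outside blood cells. The haemoglobins are given with the blood genes and are not in these shares. Cygb, cytoglobin, fell from 111 ± 13.0 to 80.3 ± 7.74 CPM (edgeR adjusted p = 0.0287), and Ngb, neuroglobin, rose from 2.98 ± 0.593 to 4.91 ± 0.299 CPM (adjusted p = 0.0322). Mb made up 0.422 ± 0.231% of these 3 genes per kb in WT and 19.0 ± 0.989% in EED-/-. Both calls were lost without any one of WT replicates 1 and 3 or EED-/- replicates 1, 2 and 3, which left Ryr3 as the 1 counterpart called higher. Of the carbonic anhydrases, the membrane-bound Car4 fell from 64.9 ± 16.7 to 18.7 ± 1.62 CPM (adjusted p = 0.000533) and the inactive Car10 fell 1.57-fold (adjusted p = 0.00391). Car2, Car7, Car8, Car11, Car12 and Car14 were not called. Car8, a Purkinje cell gene, was at 546, 694 and 1166 CPM in EED-/- replicates 1, 2 and 3. Car3 held a small share per kb of the 9 carbonic anhydrases compared here in both genotypes, 0.133 ± 0.0407% in WT and 2.61 ± 0.530% in EED-/-. These 9 genes are a chosen part of the family.

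**Figure D3:**
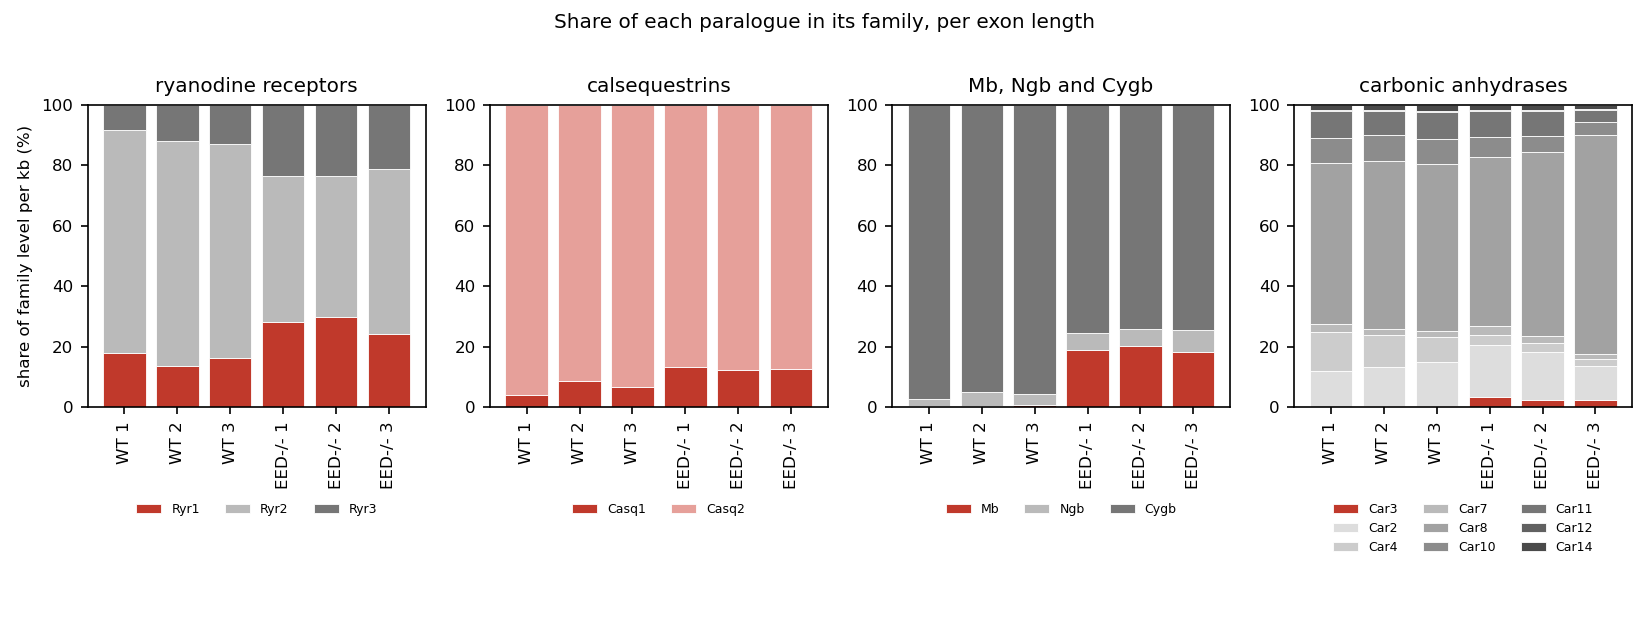
Share of each paralogue in its family's summed level per kb of exon (%), 1 bar per library. The carbonic anhydrases shown are 9 chosen genes of that family. Red marks the muscle genes described here (light red for Casq2) and grey their relatives; Mb takes 19.0% of the sum of Mb, Ngb and Cygb in EED-/- on average and 0.422% in WT, Ryr1 27.3% and 15.9% of the ryanodine receptors.

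The other genes of the triad and the reticulum did not move as a block. This list also holds neural genes: Ryr2, Ryr3, Itpr1, Atp2a2 and Atp2a3 are counted among the neural counterparts as well. Of 29 tested, 6 were called higher (20.7%, against 11.7% of all tested genes) and 8 lower (27.6%, against 14.1%). The median log2 fold change was -0.05. Cacna1s, the voltage sensor of skeletal muscle, rose from 0.521 ± 0.0823 to 4.81 ± 0.419 CPM (9.12-fold, edgeR adjusted p = 9.31e-05). The histidine-rich calcium-binding protein Hrc of the reticulum lumen rose from 0.558 ± 0.0915 to 2.68 ± 0.454 CPM. Jph2, the junctophilin of muscle triads, rose from 0.992 ± 0.0535 to 3.71 ± 0.899 CPM. Cacna1s and Hrc, with 30 and 32 WT counts, passed the low-count filter only through their EED-/- libraries, which favours higher calls. Sarcalumenin (Srl), which binds calcium in the lumen, rose 1.64-fold, and Ryr3 and Itpr2 completed the higher genes. In contrast, Jph1, the other junctophilin of skeletal muscle, fell from 30.1 ± 3.22 to 8.04 ± 1.19 CPM (adjusted p = 0.000136). Mrln, a peptide that holds SERCA back as sarcolipin does, fell from 3.07 ± 0.735 to 0.319 ± 0.121 CPM (adjusted p = 0.000542). The brain junctophilins Jph4 and Jph3 fell 2.63-fold and 1.89-fold, and Ryr2, Itpr3, Pvalb and Asph were also lower. The lower count was 5 without WT replicate 1, WT replicate 3 or EED-/- replicate 1, when Asph, Itpr3 and Pvalb were not called. Phospholamban, Pln, the SERCA inhibitor of heart and slow muscle, was at 0.539 ± 0.164 and 0.814 ± 0.176 CPM and was not called. Cacng1 and Cacng6, subunits of the muscle calcium channel, were under the filter with 5 WT counts each and 47 and 36 EED-/- counts, and Strit1 was at 0 in every library.

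The other muscle energy genes were mixed as well. Of 23 tested, 6 were called higher (26.1%, against 11.7% of all tested genes) and 4 lower (17.4%, against 14.1%). The median log2 fold change was -0.01. Ampd1, the AMP deaminase of muscle, had 3 counts in WT as a whole and rose to 1.35 ± 0.196 CPM, a ratio of 25.9 (95% counting interval 8.58 to 128; edgeR adjusted p = 0.000251). Ppp1r3a, which targets a phosphatase to muscle glycogen, rose 11.5-fold, the muscle cytochrome oxidase subunit Cox6a2 rose 4.02-fold and the fatty acid carrier Cd36 rose 3.17-fold. Ampd1, Ppp1r3a (5 WT counts), Cox6a2 (23 WT counts) and Cd36 (33 WT counts) passed the low-count filter only through their EED-/- libraries. That favours higher calls among them. The muscle glycogen phosphorylase Pygm, from 66.8 ± 9.25 to 101 ± 10.9 CPM, and the enolase Eno3 were the other two called higher. The 4 that fell were the glycerol phosphate dehydrogenase Gpd1 (2.15-fold), hexokinase Hk2 (1.72-fold), the insulin-responsive transporter Slc2a4 (1.66-fold) and phosphofructokinase Pfkm (1.37-fold). Without EED-/- replicate 1 or 3 only Gpd1 and Hk2 were called lower. Ckmt2, the mitochondrial creatine kinase of muscle, was under the filter with 0 counts in WT and 14 in EED-/-.

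Genes of the contractile filaments rose almost throughout. The sarcomere, myogenic and endplate lists were chosen, like the 10 genes, with earlier results of these data known. Nothing is therefore read from their shares. Of 29 sarcomere genes tested, 26 (89.7%) were called higher, with a median log2 fold change of 2.71, and Mybpc1, Neb and Tcap were not called. Skeletal actin Acta1 rose from 1.70 ± 0.198 to 21.9 ± 3.98 CPM and the slow myosin Myh7 rose from 3.28 ± 0.575 to 33.5 ± 4.33 CPM (edgeR adjusted p = 3.66e-05 for both). The perinatal myosin Myh8 rose 69.1-fold and the slow troponin Tnnt1 19.8-fold. Genes as low in WT as Myh8 entered the test only through their EED-/- libraries. Of 11 myogenic regulators 5 (45.5%) were called higher and 1 (9.09%) lower, with a median of 0.72; over all tested genes the shares were 11.7% and 14.1%. Pax7, the factor of muscle stem cells, rose 4.56-fold and myogenin (Myog) 26.4-fold, from 0.0700 ± 0.0606 to 1.997 ± 0.705 CPM. Myog had 4 counts over WT and 126 over EED-/- (log2 fold change 4.72, SE 0.601), so its size is poorly fixed. The fusion protein gene Mymk rose 10.2-fold from 8 WT counts. Like Myog, it entered the test only through its EED-/- libraries. Eya1 rose 2.46-fold and Mef2c 1.65-fold, and Mef2d fell 1.76-fold. Myod1 was at 0.451 ± 0.143 and 0.696 ± 0.329 CPM and was not called. Without WT replicate 1 Mef2a was also called lower, which made 2.

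Of 9 tested genes of the muscle endplate, where motor nerves meet the fibre, 5 (55.6%, against 11.7% of all tested genes) were called higher. The median log2 fold change was 1.41. As this list was chosen with earlier results known, its share is described only. The acetylcholine receptor subunit Chrna1 rose 11.8-fold. The fetal subunit Chrng rose from 1 to 89 counts, a ratio of 81.4 (95% counting interval 14.3 to 3253). Chrnd had 0 WT counts and was at least 21.1-fold higher, against a floor of 3 counts summed over WT. Genes this low in WT, such as Chrng and Chrnd, could be tested only if they were higher in EED-/-. Rapsn and Musk, which cluster the receptor, rose 3.65-fold and 2.66-fold, and 3 genes were called without WT replicate 1 or 2 or EED-/- replicate 1 or 2. Musk alone lost its call without WT replicate 3 or EED-/- replicate 3. Intervals and floors cover counting error only.

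**Figure D4:**
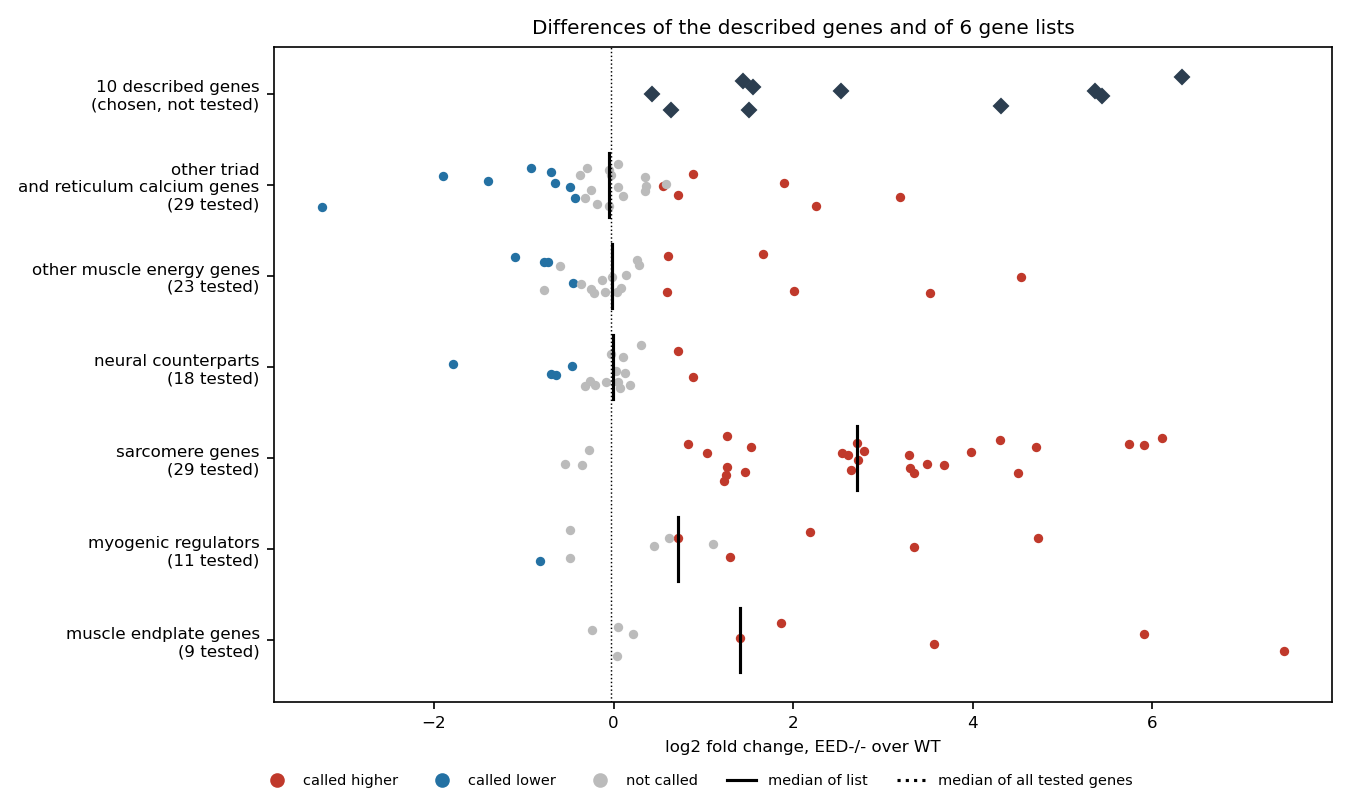
Log2 fold change of EED-/- over WT for the 10 genes (diamonds) and for every tested gene of 6 lists (points; red called higher, blue lower, grey not called); vertical lines are list medians and the dotted line the median of all tested genes. The sarcomere median is 2.71, while those of the other triad genes, the other energy genes and the neural counterparts lie at -0.05, -0.01 and -0.01. Ryr2, Ryr3, Itpr1, Atp2a2 and Atp2a3 are points of both the triad and the neural list.

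The genes whose profile over the 6 libraries came nearest to the mean profile of the 10 were also for the most part muscle genes. Likeness was the root mean square difference of row-centred log2 CPM, over genes of at least 1 CPM in either genotype. Of the 10 themselves only Atp2a1 (0.145) lay this near to their mean, and the others stood at 0.395 (Trdn) to 1.31 (Mb). The genes below are therefore near the average of the 10, not near each of them. The nearest was Tnnc1, the troponin C of slow and cardiac muscle (0.124), followed by Actn2, an actinin of the Z-disc (0.128). Hjv, the hemojuvelin gene of iron control (0.168), Pax7 (0.188), Myl4 (0.200), Mylk4 (0.204), Vax2os (0.237) and Myot (0.255) followed. Vax2os is an antisense transcript, and its counts are uncertain because strand use is not stated. These genes were selected by likeness, so their difference between genotypes is no separate result.

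The EED-/- libraries did not rank the 10 genes alike. Replicate 3 was the lowest library for Ryr1, Jsrp1, Atp2a1, Sln, Ckm and Mb and the highest for Trdn, Casq1, Casq2 and Car3. As a share of the mean of replicates 1 and 2, its level was 48.1% for Ckm, 49.6% for Jsrp1, 65.0% for Sln and 65.6% for Atp2a1. The same share was 119% for Car3, 126% for Casq1, 129% for Casq2 and 151% for Trdn. The median was 83.4% for the 10 genes, 72.8% for the 29 sarcomere genes, 74.5% for the 9 endplate genes and 100.2% for the 11 myogenic regulators. It was 25.7% for 6 genes of blood and 88.2% for 9 genes of meningeal fibroblasts. No test was made of these shares.

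**Figure D5:**
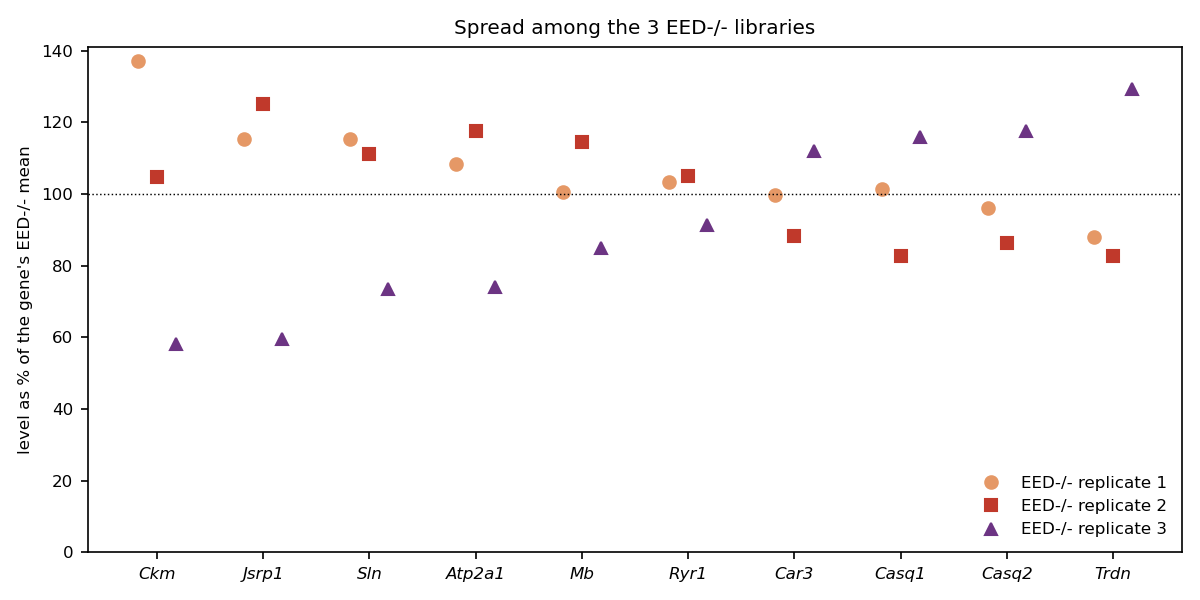
Level of each gene in the 3 EED-/- libraries as a percentage of its EED-/- mean, ordered by replicate 3; the dotted line is 100%. Replicate 3 is lowest for the 6 genes on the left and highest for the 4 on the right.

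Markers of other tissues that a cerebellum sample could hold also differed between genotypes. Beside the counts of calls given below, 11.7% of all tested genes were called higher and 14.1% lower. All 9 tested markers of meningeal fibroblasts were called higher, and their summed level was 366 to 439 CPM in WT and 854 to 1163 CPM in EED-/-. The count was 6 without WT replicate 3, and 8 without any one EED-/- library or with no low-count filter. Of 5 tested satellite cell markers 3 were higher (29.9 to 34.5 and 64.1 to 69.8 CPM), and Myf5 had 1 count in WT and 0 in EED-/-. Of 6 tested cardiac markers 4 were higher and 1, Mybpc3, was lower. Of the higher ones, Myl2 (28 WT counts) and Hand2 (0 WT counts) passed the low-count filter only through their EED-/- libraries, which favours higher calls. Mybpc3 was the most abundant and fell 9.96-fold, so the cardiac sum was 172 to 212 CPM in WT and 49.9 to 55.1 CPM in EED-/-; Myl7 was at 0 in every library. Smooth muscle markers were 2 higher and 1 lower of 7 (46.1 to 52.1 and 65.0 to 84.0 CPM), with 4 higher without WT replicate 1.

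Of 6 tested cartilage and bone markers 4 were higher (37.2 to 43.8 and 53.4 to 70.9 CPM), or 2 without WT replicate 1, WT replicate 3 or EED-/- replicate 2. Of those called higher, Matn1 (23 WT counts) passed the low-count filter only through its EED-/- libraries. Of 3 tendon markers 2 were higher (19.1 to 23.3 and 42.2 to 54.8 CPM), or 1 without WT replicate 3 or EED-/- replicate 1. Skin markers summed to 12.3 to 16.9 and 13.1 to 18.3 CPM with Krt5 at 0 in every library; of 3 tested Krt1 was called higher, but not when any library other than EED-/- replicate 3 was left out. None of the 8 adipocyte markers reached the filter, at summed levels of 0.483 to 0.569 CPM in WT and 0.392 to 0.900 CPM in EED-/-. Schwann cell markers summed to 85.8 to 113 and 98.2 to 170.3 CPM, and edgeR, limma-voom and DESeq2 each called 0 of 4, with 0 at an unadjusted p under 0.05. The call was 1 without EED-/- replicate 3.

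Blood genes summed to 559, 258 and 314 CPM in WT replicates 1, 2 and 3 and to 1782, 1267 and 361 CPM in the EED-/- replicates. By edgeR 0 of 6 were called, with 5 at an unadjusted p under 0.05; limma-voom called 0 and DESeq2 called 1, and edgeR called 5 without EED-/- replicate 3. Among neurons, all 7 granule neuron markers fell (3785 to 4639 and 430 to 620 CPM), and of 10 Purkinje cell markers 1, Gng13, was lower (3899 to 4750 and 4066 to 5636 CPM). The Purkinje count lower was 0 without any one library other than WT replicate 3, with the replicate block, and with scaling by library size alone or by the upper quartile. A single marker was called higher without WT replicate 2, with those 2 scalings, with no low-count filter and with DESeq2. The most abundant gene of each set was Igf2 (meningeal), Vcam1 (satellite), Mylk (smooth muscle), Col2a1 (cartilage), Fmod (tendon), Krt10 (skin), Plin1 (adipocyte), Sox10 (Schwann), Hbb-bs (blood), Fat2 (granule) and Itpr1 (Purkinje). The granule and Purkinje sets, which define the labelled tissue, were read in every library. The part of any of these sets in the levels of the 10 genes was not tested.

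Some of the 10 genes share exon sequence with a gene on the other strand, and strand use is not stated for the counts. Mb shares 27.6% of its exon bases with Gm49540 (0.242 ± 0.127 and 1.02 ± 0.431 CPM) and 4.3% with Apol6. Atp2a1 shares 21.9% with Rabep2, which was at 9.99 ± 1.12 and 10.4 ± 1.71 CPM, above Atp2a1 in both genotypes. Ckm shares 15.5% with A930016O22Rik, at 0.417 ± 0.0432 and 0.286 ± 0.0915 CPM, more than Ckm itself had in WT. Casq1 shares 8.0% with Gm17224 and Ryr1 4.0% with Gm26604 and 0.2% with Gm44408. For these 5 genes, reads of the shared bases cannot be assigned to one strand.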

How the data were processed

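Polyadenylated RNA of whole cerebellum was measured in 6 libraries, 3 per genotype, grouped by the labels. The authors deposited estimated counts per gene and library, not scaled between libraries; 22.5% to 23.6% of values were not whole to within 1e-06. Per the submitters' processing notes, Salmon 1.1.0, DESeq2 1.26.0, Trimmomatic 0.36, Bowtie2 2.4.1, MACS2 and the builds GRCm38 and mm10 were used, with no step given for each. The authors' deposited table holds log2 fold changes of EED-/- over WT and p-values; its gene symbols and log2 values were used and its p-values were not printed. Salmon divides reads between similar transcripts, so paralogue values depend on its model.

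Counts were rounded, filtered with edgeR's filterByExpr (18091 genes tested of 35346 with a count), scaled by TMM and fitted with edgeR 4.0.16 (quasi-likelihood F test, robust, two-sided) in R 4.3.3 on genotype alone. Adjusted p-values are Benjamini-Hochberg over all tested genes, with a threshold of 0.05. A gene near 0 in WT passes the filter only if its EED-/- libraries are higher, which favours higher calls among such genes. Lengths for CPM per kb are the union of GENCODE exons on GRCm38; 99.9% of tested genes matched by identifier. A gene with 1 to 3 WT counts is given as a ratio with an exact conditional binomial 95% interval, and one at 0 WT counts against 3 counts over the group. Libraries held 19621814 to 20366173 counts, so values under 1 CPM rest on few counts. No 2 replicates agreed within sampling noise (their chi-square divided by its degrees of freedom was 8.36 to 55.2). Alternatives were other scalings, no low-count filter, a prior count of 2, limma-voom 3.58.1, DESeq2 1.42.0, a replicate block and leaving out each library.

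The 10 genes and the lists were chosen with earlier results of these data known. From each list up to 4 genes called higher and 4 called lower with the smallest adjusted p are named, with every neural counterpart, the 8 nearest profiles, and marker genes at 0 or most abundant in their set. Other list and marker genes (Ryr3 and Itpr2 as triad genes, Itpr3, Pvalb, Asph, Pln, Cacng1, Cacng6, Pygm, Eno3, Ckmt2, Mybpc1, Neb, Tcap, Mef2a, Mef2c, Myod1, Myf5, Krt1 and Gng13 among them) were named after their values were seen.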

Additional observations from a re-analysis of the deposited data

How the results depend on the processing

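The differences of the 10 genes kept their direction under the alternatives tried for them (other scalings, a prior count of 2, DESeq2, a replicate block and leaving out each library): 109 of their alternative values stayed within 1 SD of the main value and 11 moved further. The fitted log2 fold changes of Trdn and Ckm depend on the few WT counts. They were 3.26 and 4.65 with a prior count of 2, and 7.37 and 9.05 without WT replicate 3, which holds all their WT counts. Without single libraries Jsrp1 was called in 0, Casq2 in 1 and Sln in 2 of 6 fits, and the other 7 genes in all 6. Genes called higher over the whole table numbered 1205 to 2176 without 1 library, and genes called lower 1335 to 2476. Upper-quartile scaling and library size alone moved the median log2 fold change of all genes from -0.03 to 0.09 and 0.07. Other triad genes called lower numbered 5 under both of these scalings and 5 to 7 without 1 library. Other energy genes called lower numbered 2 with upper-quartile scaling and 2 to 4 without 1 library. Neural counterparts called higher numbered 1 to 2 and endplate genes 3 to 4 without 1 library, and DESeq2 called 3 endplate genes. Myogenic regulators called lower numbered 2 with no low-count filter and with DESeq2, and 1 to 2 without 1 library. The cause of these moves was not tested.

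No pairing by replicate number was seen: deviations of same-numbered libraries correlated at 0.0459, -0.384 and 0.00324. Those of differently numbered libraries correlated at -0.322 to 0.343. With 3 libraries per genotype these values cannot decide whether the numbers pair the samples. With a replicate block 1505 genes were called higher and 1706 lower, and the calls were 5 of the other triad genes lower, 1 neural counterpart higher and 3 endplate genes higher. Depth limits Trdn, Jsrp1, Sln, Ckm and Mb most, since each had 28 or fewer counts over the WT libraries.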
